A study of Homo sapiens with 6 samples.

Results

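Aminoacyl-tRNA synthetases join each amino acid to its tRNA, and 37 genes of this family were followed by their symbols in counts from NB4 cells, among 23368 symbols in all. They comprise 19 genes for cytosolic enzymes, 16 for mitochondrial enzymes, whose symbols end in 2, and GARS and KARS, which each make a cytosolic and a mitochondrial form. All 37 passed the filter on low counts, which left 13209 genes to test. The members were listed by symbol and not by a measured value, but with earlier results of these data known. TARSL2, a second threonyl-tRNA synthetase gene, was counted as cytosolic in spite of its ending.

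NB4 is an established human cell line of acute promyelocytic leukemia (APL), and maltonis is a synthetic molecule derived from maltol. Total RNA was sequenced from cells left not treated (n.t.) and from cells given maltonis at 10 µM for 24 h; each group has 3 libraries, described as biological replicates. The n.t. libraries belong to the same 24 h time point, and neither group carried an engineered allele. All results come from this single line, and p-values measure the spread between these libraries.

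Cytosolic synthetases charge the tRNAs used by the ribosomes of the cytosol, while a second, nuclear-encoded set is imported to serve translation inside mitochondria. The enzymes fall into class I and class II, which differ in the fold of the catalytic domain. A group of cytosolic enzymes is held with scaffold proteins in the multi-synthetase complex. Uncharged tRNA activates the kinase encoded by EIF2AK4 (GCN2), which raises translation of the transcription factor ATF4, and ATF4 is known to act on many cytosolic synthetase genes through C/EBP-ATF response elements (CARE) near their starts.

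Short stretches of the member promoters are shown first, because the RNA changes of the genes that carry the element are described further on. The sequences come from a RefSeq table of windows from 250 bases before to 50 after each annotated start, on build GRCh38.p14. The table held 39 windows of 30 members, and AARS2, DARS, LARS, TARSL2, VARS, VARS2 and YARS were not matched. Each stretch has 30 bases, is written 5′ to 3′ on the strand of the gene, and carries in capitals the letters TGATGNAAN (N is any base) or their reverse complement.
AARS, at chr16:70289675-70289704, minus strand: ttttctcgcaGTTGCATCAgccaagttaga
CARS, at chr11:3057407-3057436, minus strand: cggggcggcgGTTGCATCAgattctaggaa
GARS, at chr7:30594834-30594863, plus strand: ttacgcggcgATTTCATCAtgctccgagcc
IARS, at chr9:92293692-92293721, minus strand: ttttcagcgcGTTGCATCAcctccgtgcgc
MARS, at chr12:57488053-57488082, plus strand: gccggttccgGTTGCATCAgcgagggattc
NARS, at chr18:57621803-57621832, minus strand: ctacgctctcTGATGCAACgccggaatcgc
TARS, at chr5:33440956-33440985, plus strand: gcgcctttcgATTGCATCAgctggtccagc
YARS2, at chr12:32756075-32756104, minus strand: tccacactgcTGATGGAAAaattaagttta
The first capital letter lay 188 bases before the start in AARS, 3 in CARS, 34 in GARS, 14 in IARS, 5 in MARS and 197 in YARS2. It was base 15 after the start in NARS and base 2 in TARS. CARS, GARS and TARS have 2 windows each, and the element is in 1 of them.

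Depth ran from 18492154 to 38205483 counts per library. A floor of 3 counts was worth 0.0828 to 0.160 CPM, a limit that covers counting error only. CPM are counts relative to library size, scaled by the trimmed mean of M-values (TMM). The deposited libraries have a code in their names, of unstated meaning, which is the same for replicate 1 of both groups (code A) and another for replicates 2 and 3 (code B). Of 7 promyelocytic markers, all but ELANE were above the floor in every library, and ELANE had 3, 6 and 2 counts in n.t. replicates 1, 2 and 3 and 406 to 565 in treated ones. Their summed level, most of it MPO, was 13824 to 16305 CPM in n.t. and 8634 to 9091 CPM in treated cells. MPO, CEBPE and CD33 fell (log2 fold changes −0.98, −0.95 and −0.51), CTSG, AZU1 and ELANE rose (2.34, 0.48 and 7.07), and PRTN3 was not called (0.50 and adjusted p = 0.0211). Of 8 markers of other cell types, 3 had no count in any library, 4 passed 3 counts in at least 1, and their summed level was 59.9 to 62.7 CPM in n.t. and 25.7 to 28.4 CPM in maltonis-treated cells. CD3D (42.9 to 44.8 CPM in n.t., 14.9 to 15.8 CPM in treated cells) and EPCAM (17.1 ± 0.899 and 11.2 ± 1.41 CPM, SD, n = 3) made up nearly all of it, and their part in the results was not tested.

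Most synthetase genes were lower after maltonis. In edgeR's quasi-likelihood test with a false discovery rate (FDR) below 0.01, 23 of the 37 fell (62.2%) and 5 rose (13.5%), while 9 did not pass the test. Over all genes tested, 32.1% fell and 31.9% rose by the same rule. The median log2 fold change of the members was −0.40, against 0.01 for all genes tested. That median was the value of AARS, a gene that depended on 1 library, as described further on. Within code A the median of the log2 differences was −0.46, and within code B it was −0.40. Scaling by total counts or by the upper quartile, which moved the median of all genes to 0.13 and 0.10, left 19 members lower and 8 higher. The 5 rises depended on the libraries: 4 were called without n.t. replicate 1, 3 without maltonis replicate 3 and 2 without any 1 of the other 4 libraries. In bulk RNA, fewer cells of a type and less RNA per cell cannot be told apart.

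**Figure D1:**
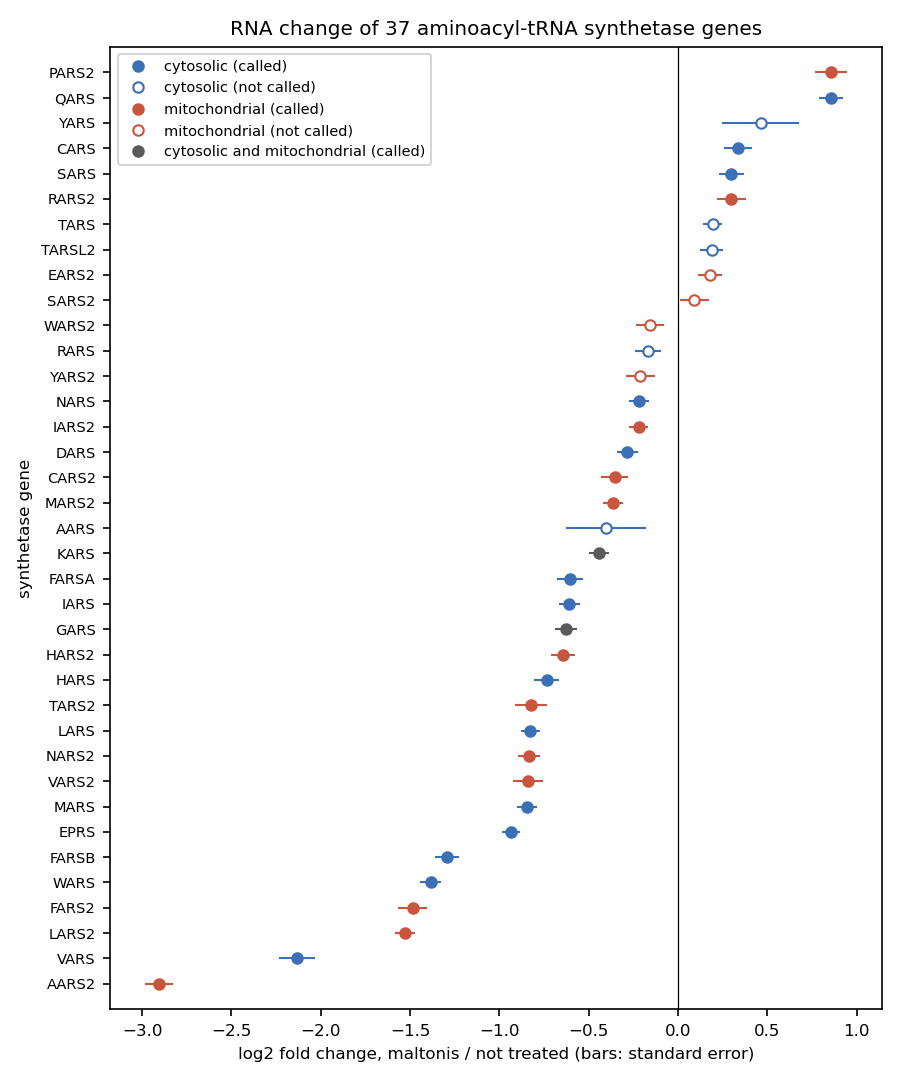
Log2 fold change of each of the 37 synthetase genes (x axis, maltonis over n.t., bars are standard errors) with genes ordered from highest to lowest, filled points marking an FDR under 0.01 in edgeR's quasi-likelihood test and colors the place of the enzyme. Values run from 0.86 for PARS2 and QARS to −2.90 for AARS2, cytosolic and mitochondrial genes are mixed along the order, and AARS and YARS have the widest bars.

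The separation of single libraries gave a like picture. In 26 members every maltonis library lay below every n.t. library, and in 9 every maltonis library lay above, against 37.8% and 38.8% of all genes tested. Only AARS and SARS2 overlapped between the groups. Such a separation gives a two-sided exact permutation p of 0.1, the smallest that 3 against 3 libraries allow, so adjusted p-values are those of edgeR's quasi-likelihood test over all genes, with Benjamini-Hochberg adjustment. Summed over the 37 genes, the level was 7394 ± 154 CPM in n.t. and 5697 ± 150 CPM in maltonis-treated cells (SD, n = 3). The lowest n.t. library held 7271 CPM and the highest treated library 5813 CPM, so the sums did not overlap.

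**Figure D2:**
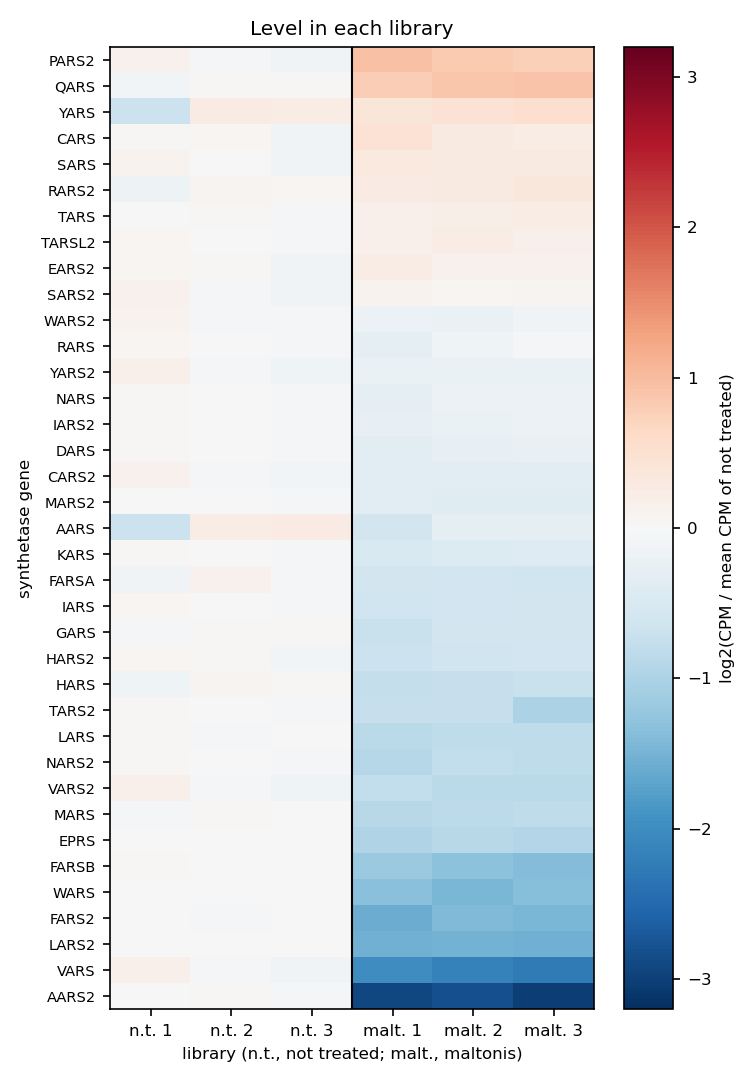
Level of each synthetase gene (rows, in the order of log2 fold change) in each of the 6 libraries (columns), as log2 of its CPM over the mean CPM of the 3 n.t. libraries, blue for lower and red for higher. The 3 treated columns resemble each other from row to row, and within the n.t. columns AARS and YARS stand out as lower in replicate 1.

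With the added limit of a change beyond 2.5-fold, the study's own cut on the log2 scale, 5 members fell: AARS2, VARS, LARS2, FARS2 and WARS. This share of the 37 was close to the background, since 10.4% of all genes tested fell by that much. No member rose by that much, against 9.96% of all genes, and the largest log2 fold change, 0.86, lay below the limit whatever its p-value; DESeq2's Wald test also gave 0 such members.

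AARS2, the mitochondrial alanyl-tRNA synthetase, had the largest change. Its level was 79.3, 80.3 and 75.7 CPM in n.t. replicates 1, 2 and 3 and 10.4, 11.2 and 9.80 CPM in the treated ones. The groups were far apart and each was narrow. The log2 fold change was −2.90 (standard error, SE, 0.0770 and adjusted p = 2.62e-08), a level 7.49-fold lower, and the log2 difference was −2.87 within code A and −2.84 within code B.

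VARS, the cytosolic valyl-tRNA synthetase, followed. It measured 269, 227 and 220 CPM in n.t. cells and 59.8, 53.6 and 49.6 CPM in treated cells. The highest treated library thus lay well below the lowest n.t. one, and replicate 1 was the highest in both groups. The log2 fold change was −2.13 (SE 0.101 and adjusted p = 3.05e-07), a level 4.39-fold lower. Within codes A and B the differences were −2.16 and −2.10.

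LARS2 charges mitochondrial leucine tRNA and FARS2 mitochondrial phenylalanine tRNA. The n.t. libraries had 102, 101 and 100.5 CPM of LARS2, and the treated ones 34.8, 35.6 and 34.8 CPM. FARS2 was among the least abundant members, at 27.4, 26.2 and 27.4 CPM in n.t. and 8.93, 10.1 and 9.80 CPM in treated cells. Neither gene's groups overlapped. The log2 fold changes were −1.53 for LARS2 (SE 0.0558 and adjusted p = 9.16e-08) and −1.49 for FARS2 (SE 0.0801 and adjusted p = 6.11e-07). In code A they differed by −1.53 and −1.57, in code B by −1.51 and −1.39.

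WARS, the cytosolic tryptophanyl-tRNA synthetase, is known as a gene that interferon gamma induces in many cells. In n.t. cells it had 136, 138 and 135 CPM, and in treated cells 54.4, 49.9 and 52.7 CPM, without overlap. It fell by 1.39 on the log2 scale (SE 0.0585 and adjusted p = 1.79e-07), and the difference was −1.41 within code B and somewhat smaller within code A. With scaling by total counts or the upper quartile, 4 genes in place of 5 were beyond the limit, since WARS then had a log2 fold change of −1.27 and −1.30. Of its 2 promoter windows, 1 holds GAAANNGAA, a core of the elements that interferon-activated factors bind, 55 bases before that annotated start, and the other does not.
WARS, at chr14:100375383-100375412, minus strand, with that core in capitals: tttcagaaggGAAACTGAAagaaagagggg

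FARSB lay just outside the limit. It encodes the beta subunit of cytosolic phenylalanyl-tRNA synthetase, whose alpha subunit is encoded by FARSA. FARSB measured 130, 125 and 125 CPM in n.t. and 55.5, 51.3 and 48.6 CPM in treated cells, a log2 fold change of −1.29 (SE 0.0665 and adjusted p = 4.70e-07). It was past the limit when n.t. and treated replicates 2 and 3 were fitted alone (−1.33) and when maltonis replicate 1 was left out (−1.37). FARSA measured 313, 374 and 330 CPM against 227, 222 and 218 CPM, and fell by 0.61 (SE 0.0729 and adjusted p = 7.54e-05). Both subunit genes were thus lower in every treated library, FARSB to 40.8% and FARSA to 65.7% of its n.t. level. The difference between the subunits was not tested.

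**Figure D3:**
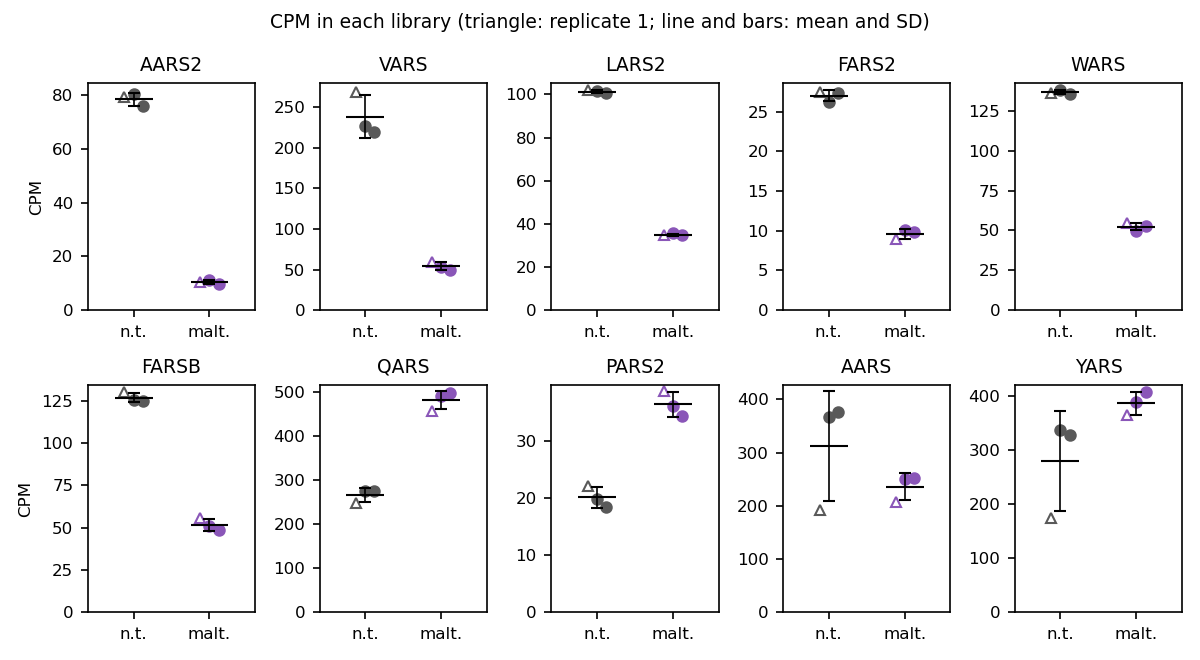
CPM (y axes, from 0) of 10 synthetase genes in each n.t. and maltonis library, with open triangles for replicate 1 (code A), filled circles for replicates 2 and 3 (code B), and lines and bars for the mean and SD of 3 libraries. AARS2, VARS, LARS2, FARS2, WARS and FARSB are lower and QARS and PARS2 higher in all treated libraries, while in AARS and YARS the triangle of the n.t. group sits at 193 and 174 CPM, far below the 2 circles.

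The cytosolic genes were described as a group beside all genes tested. Of the 19, 11 fell and 3 rose, where 32.1% and 31.9% of all genes tested did so, with a median log2 fold change of −0.40 (−0.40 within code A, −0.55 within code B). Over all libraries this median was again the value of AARS. The 3 rises were 1 without n.t. replicate 2 or 3 or maltonis replicate 1 or 2, and 2 without maltonis replicate 3. Their summed level went from 5378 ± 162 CPM to 4259 ± 127 CPM (SD, n = 3). The members of the multi-synthetase complex (DARS, EPRS, IARS, KARS, LARS, MARS, QARS and RARS) had 6 lower and 1 higher of 8, and a median of −0.53. The 12 cytosolic genes outside it had 6 lower and 2 higher, and a median of −0.31. These counts stand against the same shares of all genes, 32.1% lower and 31.9% higher, and the difference between the groups was not tested.

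Within the complex, EPRS encodes a single chain that charges both glutamate and proline tRNA. It had 403, 402 and 408 CPM in n.t. and 206, 218 and 210 CPM in treated cells, and fell by 0.94 on the log2 scale (SE 0.0522 and adjusted p = 7.26e-07). MARS, LARS and IARS charge methionine, leucine and isoleucine tRNA, and their log2 fold changes were −0.85, −0.83 and −0.61. IARS had the highest CPM of all members in n.t. cells, 690 to 751 CPM in n.t. and 457 to 481 CPM in treated cells. KARS (lysine) fell by 0.44 and DARS (aspartate) by 0.28. DARS did not pass the test without n.t. replicate 2 (adjusted p = 0.0118), with total counts (−0.17 and adjusted p = 0.0322) or with the upper quartile (−0.20 and 0.0173). RARS (arginine) had a log2 fold change of −0.17 (adjusted p = 0.0683) and was not called.

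QARS went the other way from the rest of the complex. It charges glutamine tRNA, and it measured 249, 276 and 275 CPM in n.t. and 459, 491 and 498 CPM in treated cells. All treated libraries were above all n.t. libraries. The log2 fold change was 0.86 (SE 0.0649 and adjusted p = 4.37e-06), a level 1.81-fold higher, with 0.88 within code A and 0.84 within code B.

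Outside the complex, HARS (histidine) fell by 0.74 and NARS (asparagine) by 0.22. The call of NARS was lost without n.t. replicate 2 (adjusted p = 0.0234), without maltonis replicate 2 (0.0139) and in edgeR's likelihood ratio test (0.0108). With total counts NARS was at −0.10 (adjusted p = 0.127) and with the upper quartile at −0.13 (0.0602). CARS (cysteine) rose from 74.9, 75.3 and 67.4 CPM to 99.8, 88.4 and 86.1 CPM, a log2 fold change of 0.33 (SE 0.0781 and adjusted p = 0.00417). SARS (serine) rose by 0.30, from 110 to 129 CPM in n.t. to 145 to 149 CPM in treated cells. These rises passed the test only narrowly: leaving out 1 library gave adjusted p-values above 0.01 in 4 of 6 cases for CARS, between 0.0117 and 0.0159, and in 5 of 6 for SARS, between 0.0110 and 0.0170. TARS and TARSL2, both for threonine, had log2 fold changes of 0.19 each (adjusted p = 0.0109 and 0.0269) and were not called, although their groups did not overlap. Fitted on replicates 2 and 3 alone they were called higher, at 0.22 each. They were also called with total counts (0.31 each) and the upper quartile (0.28 and 0.27), and TARS by DESeq2's Wald test (adjusted p = 0.00239).

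AARS, the cytosolic alanyl-tRNA synthetase, and YARS, the cytosolic tyrosyl-tRNA synthetase, depended on 1 library. AARS had 193, 367 and 377 CPM in n.t. and 207, 250 and 253 CPM in treated cells, so that n.t. replicate 1 was below every treated library. YARS had 174, 337 and 328 CPM in n.t. and 364, 388 and 407 CPM in treated cells. In both genes n.t. replicate 1 held about the same share of the mean of replicates 2 and 3, 51.9% for AARS and 52.2% for YARS, while in the other 35 members it held 84.8% to 120.5%. With all 6 libraries, AARS had a log2 fold change of −0.40 (SE 0.223 and adjusted p = 0.133) and YARS of 0.46 (SE 0.214 and adjusted p = 0.0796), and neither was called. Without n.t. replicate 1, AARS was called lower at −0.66 (adjusted p = 1.04e-04), and YARS was at 0.20 (adjusted p = 0.0170). On replicates 2 and 3 alone the values were −0.57 (adjusted p = 2.38e-06) and 0.25 (adjusted p = 0.00103), both called. With the replicate number as a block, YARS was called higher at 0.52 (adjusted p = 0.00487) and AARS was at −0.35 (adjusted p = 0.0161).

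A treatment effect that differed between the library codes was examined because these values had been seen, so it describes the same observation and adds no independent support. The interaction term of the edgeR quasi-likelihood fit passed an FDR of 0.01 in 26 of 13209 genes (0.197%), and AARS and YARS were among them. For AARS the log2 difference was 0.10 within code A and −0.56 within code B (interaction −0.66, adjusted p = 0.00885). For YARS it was 1.06 within code A and 0.25 within code B (interaction −0.81, adjusted p = 0.00399). In all 26 genes n.t. replicate 1 lay below n.t. replicates 2 and 3, at 3.26% to 61.3% of their mean, and in 16 maltonis replicate 1 also lay below the other treated libraries. Code A holds 1 library per group, so the code and the single library cannot be told apart. The other members had interaction adjusted p-values of 0.207 or more.

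GARS and KARS serve both places, and both fell. GARS (glycine) had 397, 423 and 426 CPM in n.t. and 254, 277 and 277 CPM in treated cells, a log2 fold change of −0.63 (SE 0.0610 and adjusted p = 2.02e-05). KARS had 477, 465 and 446 CPM against 328, 341 and 350 CPM, a log2 fold change of −0.44 (SE 0.0560 and adjusted p = 1.02e-04). Counts per gene do not separate the cytosolic from the mitochondrial form.

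Among the 16 mitochondrial genes, 10 fell and 2 rose, against 32.1% and 31.9% of all genes tested, and the median log2 fold change was −0.36 (−0.44 within code A, −0.32 within code B). The 2 rises were 1 whichever library was left out. Their summed level went from 1138 ± 45.6 CPM to 829 ± 1.00 CPM (SD, n = 3). AARS2, LARS2 and FARS2 held the largest falls, as given with their values in each library. VARS2 (valine), NARS2 (asparagine) and TARS2 (threonine) were next, at −0.84, −0.84 and −0.82, and HARS2 (histidine) fell by 0.64. Smaller falls were those of MARS2 (methionine, −0.36), CARS2 (cysteine, −0.36) and IARS2 (isoleucine, −0.22). IARS2 lost its call without n.t. replicate 2 (adjusted p = 0.0179) and without maltonis replicate 2 (0.0143). With total counts it was at −0.10 (adjusted p = 0.117) and with the upper quartile at −0.13 (0.0509).

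PARS2, which charges mitochondrial proline tRNA, rose. It was the member with the lowest n.t. CPM, at 22.2, 19.8 and 18.5 CPM, and had 38.8, 36.2 and 34.4 CPM in treated cells. The groups did not overlap, with a log2 fold change of 0.86 (SE 0.0884 and adjusted p = 2.91e-05), 0.79 within code A and 0.86 within code B. RARS2 (arginine) rose by 0.30, from 44.5 to 53.1 CPM in n.t. to 59.6 to 64.0 CPM in treated cells (adjusted p = 0.00888), and lost the call whichever library was left out, with adjusted p-values of 0.0135 to 0.0662. EARS2 (glutamate, 0.18), SARS2 (serine, 0.09), WARS2 (tryptophan, −0.16) and YARS2 (tyrosine, −0.21) were not called. EARS2 was called higher with total counts (0.30 and adjusted p = 0.00382) and the upper quartile (0.27 and 0.00580). YARS2 was called lower only without n.t. replicate 3, at −0.29 (adjusted p = 0.00996).

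Levels of the same amino acid's mitochondrial and cytosolic genes were then set against each other within each library, where the scaling of the library drops out. Of 16 pairs, 7 had both genes called lower, and in 2 the genes were called in opposite directions. Among all single genes tested, 32.1% fell and 31.9% rose. These are not shares of pairs. Calls in other gene pairs were not counted, so the 7 and the 2 have no background beside them. EPRS was the counterpart of both EARS2 and PARS2, so the pairs are not all independent. SARS2 and SARS were the only pair with both log2 fold changes above 0. The mitochondrial to cytosolic ratio was lower with maltonis in 8 pairs and higher in 8, with a median log2 difference of −0.06. In 15 of the 16 pairs the ratios of the groups did not overlap, which gives the smallest possible two-sided exact permutation p of 0.1 (0.107 adjusted over 16 pairs). This test can therefore not pass 0.05 for any single ratio, and no other test of the ratios was made. Of all single genes tested, 37.8% had every maltonis library below every n.t. library and 38.8% above. The share for ratios of other gene pairs was not computed, so the count of separated pairs has no background beside it.

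**Figure D4:**
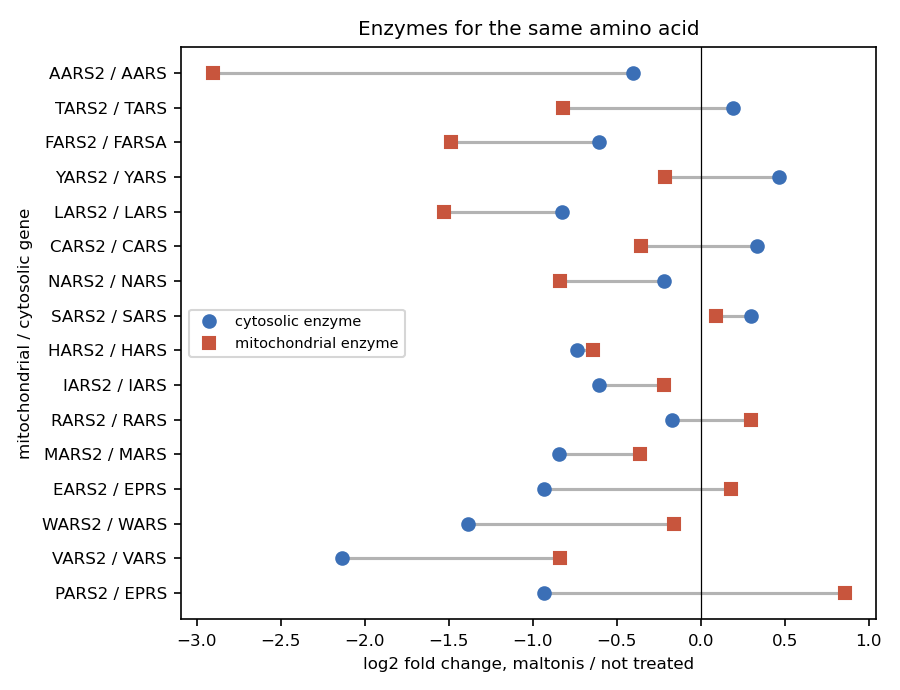
Log2 fold change (x axis, maltonis over n.t.) of the mitochondrial gene (red square) and the cytosolic gene (blue circle) for the same amino acid, 1 row per pair, ordered by the change of their ratio. The squares lie left of the circles in 8 rows, most in AARS2/AARS, and right of them in 8, most in PARS2/EPRS.

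The largest shifts of the ratio were at its ends. AARS2/AARS was −1.28, −2.19 and −2.31 (log2) in n.t. and −4.32, −4.48 and −4.69 in treated libraries, a difference of −2.57 (−3.03 in code A and −2.33 in code B). PARS2/EPRS was −4.18, −4.35 and −4.46 in n.t. and −2.41, −2.59 and −2.61 in treated libraries, a difference of 1.79. In this pair the mitochondrial gene rose and the cytosolic one fell. CARS2/CARS was the other pair called in opposite directions, with CARS2 lower (71.9, 62.9 and 61.2 CPM to 50.6, 50.4 and 52.0 CPM) and CARS higher, and its ratio differed by −0.69. The call of CARS2 was lost under scaling by total counts (adjusted p = 0.0221) or the upper quartile (0.0111), although with total counts the signs stayed opposite (−0.24 and 0.45). The call of CARS was lost in several fits with 1 library left out (adjusted p up to 0.0159). The opposite calls thus depend on the scaling and on the libraries, while the difference of the ratio does not depend on the scaling.

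Amino acids with a ratio that moved toward the mitochondrial gene included valine (VARS2/VARS, 1.30), tryptophan (WARS2/WARS, 1.23) and glutamate (EARS2/EPRS, 1.12). In each of these the cytosolic gene fell. The ratio moved toward the cytosolic gene for threonine (TARS2/TARS, −1.02), phenylalanine (FARS2/FARSA, −0.89), tyrosine (YARS2/YARS, −0.73), leucine (LARS2/LARS, −0.70) and asparagine (NARS2/NARS, −0.62). For phenylalanine only FARSA (−0.61) was taken as the counterpart. FARSB, the other subunit gene, had −1.29, close to the −1.49 of FARS2, so the phenylalanine shift depends on that choice. A ratio to FARSB was not computed. YARS2/YARS differed by −1.44 in code A and −0.38 in code B, where n.t. replicate 1 again stands apart. HARS2/HARS was the only pair with overlapping ratios (difference 0.09, exact permutation p = 0.4).

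By catalytic class, the 18 class I genes had 10 lower and 3 higher, with a median log2 fold change of −0.29. The 18 class II genes had 12 lower and 2 higher, with a median of −0.53. EPRS joins a class I and a class II enzyme in 1 chain and was counted in neither. Over all genes tested the shares were 32.1% lower and 31.9% higher, and the difference between the classes was not tested.

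Levels of different genes were compared per kilobase of merged exons in GENCODE version 29. In n.t. cells FARSA (139 ± 12.8 CPM per kilobase), KARS (114 ± 3.81) and GARS (100.04 ± 3.80) were the highest (SD, n = 3). In treated cells QARS was the highest, at 103 ± 4.45 CPM per kilobase from place 11 in n.t. cells, followed by FARSA (91.4 ± 1.80) and TARS (84.7 ± 2.57). TARS had 429, 432 and 411 CPM in n.t. and 471, 482 and 500 CPM in treated cells. The lowest level in both groups was that of FARS2, 5.58 and 1.99 CPM per kilobase, and AARS2 went from place 25 to place 36. The median level of the cytosolic genes was 55.0 CPM per kilobase in n.t. and 38.8 in treated cells, and that of the mitochondrial genes 14.04 and 9.30. The order depended on the length used. Per kilobase of coding length, KARS (236), NARS (210) and DARS (199) were the highest in n.t. cells and YARS (244), TARS (208) and QARS (181) in treated cells.

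Overlapping annotation limits some of these counts, since the library kit marks strand but the strand setting of the counting is not given in the sources used here. SARS2 shares 46.2% of its exon bases with a readthrough gene on the same strand, and VARS2 shares 22.0% with GTF2H4. HARS and HARS2 lie head to head and share 437 bases on opposite strands, 5.56% and 11.7% of their exons. MARS shares 519 bases with ARHGAP9 and 355 bases with DDIT3 on the opposite strand, 7.38% and 5.05% of its exons. Also on the opposite strand, SARS2 shares 10.8% with MRPS12, DARS 7.60% with DARS-AS1 and EARS2 6.46% with UBFD1. WARS shares 6.06% with AL157871.4, and AARS2 5.47% with TMEM151B and as much with AL353588.1, again on the opposite strand. Overlaps under 5% are not listed. Stretches of 31 bases were compared between annotated transcripts in the sense direction only. The overlap of HARS and HARS2 on opposite strands is therefore not seen in that search. Of the 16 mitochondrial genes with a cytosolic counterpart, none shared such a stretch with it in the sense direction. In the same search, 33 of the 37 members shared under 5% of their stretches with other genes. The rest were SARS2 (63.6%), HARS (6.88%), TARS2 (6.69%) and AARS2 (5.07%).

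The element shown at the start was present in 8 of 39 member windows (20.5%) on either strand, against 3.61% of all 35116 windows in the table. Its 8 genes were not all called in 1 direction. GARS, IARS, MARS and NARS fell, CARS rose, and AARS, TARS and YARS2 were not called. Beside these calls, 32.1% of all genes tested fell and 31.9% rose, and 62.2% and 13.5% of the members. The calls of NARS and CARS depended on the libraries used, and AARS was called lower without n.t. replicate 1 (−0.66), as given above. CACGTG, the E-box that MYC binds among other factors, was in 12.8% of member windows and 7.26% of all. GCATGCGC, a core of sites for NRF1, a factor of nuclear genes for mitochondria, was in 5.13% and 3.05%, and GAAANNGAA in 12.8% and 8.11%. CACGTG was found for CARS2, EARS2, IARS and MARS2, GCATGCGC for MARS2 and YARS2, and GAAANNGAA for EARS2, GARS, IARS and WARS. A match describes letters in the window and not a bound site.

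A list of 37 other genes (partner genes) was examined beside them. Most have roles with tRNA or in translation, and 10 belong to the amino acid stress response. Of the 37, 17 fell (45.9%), 8 rose (21.6%) and 12 did not pass the test, against 32.1% lower and 31.9% higher of all genes tested. Of the scaffolds of the multi-synthetase complex, AIMP1 fell by 0.95 and EEF1E1 by 0.53, while AIMP2 had −0.16 (adjusted p = 0.153). AIMP1 measured 75.8, 82.8 and 83.4 CPM in n.t. and 37.8, 41.3 and 45.8 CPM in treated cells. Mitochondria make glutaminyl-tRNA without a synthetase of their own, through an amidotransferase whose subunit genes GATB (counted as PET112) and GATC had −0.42 and 0.31, both called. QRSL1, the remaining subunit gene, and MTFMT, which formylates the initiator methionyl-tRNA, were not called.

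Several genes that proofread or carry tRNAs fell. DTD1, which removes D-amino acids from tRNA, fell by 1.15, and the related DTD2 (counted as C14orf126) by 0.70. DTD1 had 105.0, 105.0 and 94.0 CPM in n.t. and 45.5, 45.3 and 46.5 CPM in treated cells. AARSD1, which clears mischarged alanine tRNA, fell by 0.55, and XPOT, the exportin of tRNA, by 0.59. SEPSECS and PSTK act in turn to make selenocysteine on its tRNA, and they were called in opposite directions, at −0.93 and 0.84. TRNT1, which adds the CCA end to tRNA, rose by 0.42.

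Elongation and mitochondrial translation factors were mixed. EEF2, which moves the cytosolic ribosome along, rose by 0.67, from 2818 to 3188 CPM in n.t. to 4658 to 5257 CPM in treated cells. EEF1D rose by 0.48, while EEF1A1, EEF1B2 and EEF1G, of the factor that delivers charged tRNA and its exchange complex, were not called. In mitochondria TSFM, the exchange factor of the elongation factor encoded by TUFM, fell by 1.29. GFM1, a mitochondrial elongation factor gene, fell by 0.72, and MTIF2, an initiation factor gene, by 0.41. TUFM, GFM2 and MTIF3 were not called.

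Genes of the amino acid stress response did not move together. CHAC1 and DDIT3, both raised by ATF4 in stress, rose by 3.06 and 1.50, and SESN2 by 0.98. CHAC1 was scarce, at 0.414 to 0.586 CPM in n.t. and 3.76 to 4.85 CPM in treated cells. ATF4 itself fell by 0.49, from 421 to 493 CPM in n.t. to 314 to 328 CPM in treated cells. TRIB3 fell by 1.02, PSAT1 by 0.91, PHGDH by 0.83, ASNS by 0.40 and EIF2AK4 by 0.35. PSAT1 and PHGDH make serine and ASNS makes asparagine. GCN1 (counted as GCN1L1), the partner of the GCN2 kinase, had −0.16 (adjusted p = 0.0550) and was not called. Of the 25 called genes in this list, 20 passed the test whichever library was left out. AARSD1 and EEF1E1 passed it in 4 of 6 such fits (adjusted p up to 0.0115 and 0.0179) and TRNT1 in 3 (up to 0.0339). PSAT1 and EIF2AK4 passed it in 1 of 6, that without n.t. replicate 1 (otherwise up to 0.0329 and 0.0179). PSAT1 had 29.1, 53.5 and 52.8 CPM in n.t. replicates 1, 2 and 3, and thus was low in the same library as AARS and YARS. EEF1G was called lower without n.t. replicate 1 (adjusted p = 0.00234).

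**Figure D5:**
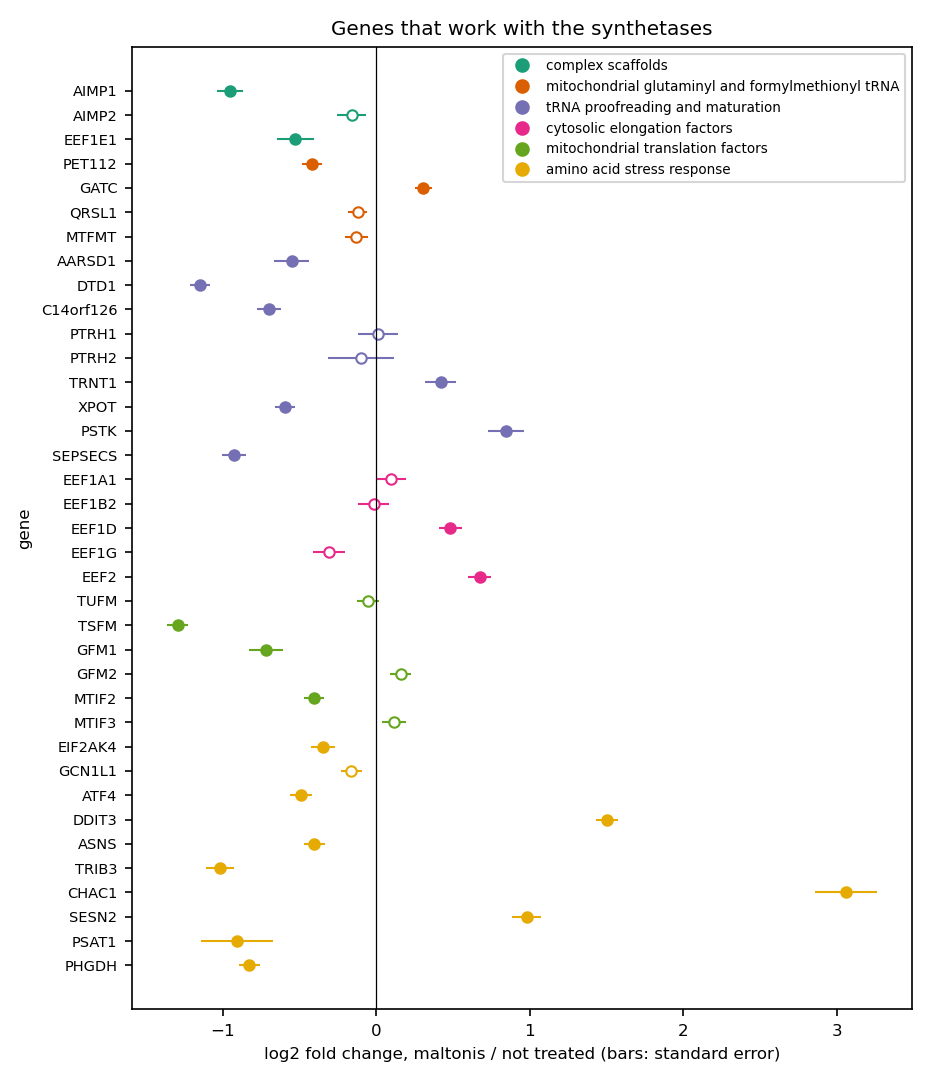
Log2 fold change (x axis, maltonis over n.t., bars are standard errors) of the 37 partner genes, 10 of them of the amino acid stress response, colored by role, with filled points for an FDR under 0.01 in edgeR's quasi-likelihood test. Most points lie between −1.29 (TSFM) and 0.98 (SESN2), and DDIT3 and CHAC1 stand apart at 1.50 and 3.06.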

How the data were processed

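RNA was extracted from NB4 cells and ribosomal RNA was removed before stranded libraries were made. The authors deposited 1 table of whole-number HTSeq counts per gene symbol for each of the 6 libraries, without normalization. The submitters' processing notes name TopHat, Bowtie2, HTSeq and hg19, and neither versions nor the strand setting of the counting are given in the sources used here. Samples were grouped by their titles. Library totals ran from 18492154 to 38205483 counts, and pairs of replicates differed by more than sampling noise (chi-square per degree of freedom 4.15 to 33.1).

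Differential expression was computed with edgeR 4.0.16 under R 4.3.3. TMM scaling and filterByExpr were used, and the quasi-likelihood test took all 6 libraries with treatment as the only term and Benjamini-Hochberg adjustment over 13209 genes. A gene was called at an FDR under 0.01, and as a second rule also with a change beyond 2.5-fold; no RPKM criterion was applied, since the count tables hold no lengths. All adjusted p-values of genes come from this test unless another is named. The step was first tested on simulated counts with known changes. Ratios of counts within a library were compared with two-sided exact permutation tests. Same-numbered libraries of the groups deviated together (r = 0.413, 0.137 and 0.220 for replicates 1, 2 and 3). So did n.t. replicate 2 and maltonis replicate 3 (0.208) and n.t. replicate 3 and maltonis replicate 2 (0.235). Replicate 1 of either group against replicates 2 and 3 of the other had r from −0.326 to −0.252. Deviations were taken from each group's own mean. Values among replicates 2 and 3 therefore follow in part from that of replicate 1. Pairing by number, which comes from the titles, is thus not told apart from the library code for replicates 2 and 3. The main test and the permutation tests used no pairing. The replicate block was fitted as an alternative.

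The 37 members, the list of 37 partner genes, the markers and the motifs were chosen with earlier results of these data known. One further gene of that list is not reported here. Every member is named. Values in each library are given for members beyond a log2 fold change of 1 in size, for the 3 highest per length, and for pairs called in opposite directions; those of AARS, YARS, QARS, TARS and some partner genes were added after they were seen. Lengths and overlaps come from GENCODE version 29 on GRCh38, another build than that of the counts, so no gene coordinates are given, and promoter windows from RefSeq on GRCh38.p14. Alternatives were another scaling, DESeq2 1.42.0 or a likelihood ratio test in edgeR, no filter on low counts, a replicate block, code B alone and each library left out. The authors' own fold changes and their other assays were not used here. Python 3.11.15 with pandas 2.3.3, scipy 1.17.1 and matplotlib 3.10.9 was used for the tables and figures.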

Additional observations from a re-analysis of the deposited data

Results flagged for a closer look

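AARS and YARS were singled out by the interaction of treatment and library code in edgeR's quasi-likelihood fit. That term was chosen because both genes had been seen to be low in n.t. replicate 1, and code A holds 1 library per group, so it restates this observation and is no separate evidence of a difference between the codes. The effect in replicates 2 and 3 minus that in replicate 1 was −0.66 (log2) for AARS and −0.81 for YARS. Counts for n.t. replicate 1 were 3624 for AARS and 3262 for YARS, well above the floor of 3 counts. With 3 libraries per group, no search for outlying samples was made.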

How the results depend on the processing

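Of the 37 members, 24 kept their direction and their side of the threshold under all 14 alternatives, and no log2 fold change of a called member changed sign. The other 13 were AARS, CARS, CARS2, DARS, EARS2, IARS2, NARS, RARS2, SARS, TARS, TARSL2, YARS and YARS2, all with log2 fold changes of at most 0.46 in size. The number of members called lower stayed within 1.5 times of 23, while the number called higher, 5, was 8 with total counts, 8 with the upper quartile, 8 on replicates 2 and 3 alone and 2 to 4 with a library left out. For the cytosolic genes it was 5, 5, 6 and 1 to 3 in place of 3, and for the mitochondrial genes it was 1 without the filter on low counts and 1 with any library left out, in place of 2. The cytosolic median was −0.28 with total counts, −0.56 on replicates 2 and 3 alone and −0.58 to −0.28 with a library left out, and the mitochondrial median −0.24 with total counts, −0.27 with the upper quartile and −0.40 to −0.33 with a library left out. The cytosolic median was the value of AARS in the main fit (−0.40) and with total counts (−0.28). It was that of IARS on replicates 2 and 3 alone (−0.56) and without n.t. replicate 1 (−0.58). Beyond that, the cause of these shifts was not tested. The replicate block (paired fit) called YARS higher at 0.52 and changed no other member's call, with a cytosolic median of −0.35 and a mitochondrial median of −0.36. Per coding length, which was added after seeing the data, median levels were 100.2 and 78.9 CPM per kilobase for cytosolic and 28.5 and 23.7 for mitochondrial genes in n.t. and treated cells; coding length from a protein table was not run. Numbers of called partner genes and of pairs with a lower ratio stayed within 1.5 times of 17, 8 and 8. With 3 libraries per group no exact permutation test can pass 0.05. Counts per member in n.t. replicate 1, the shallowest n.t. library, were 417 (PARS2) or more. In maltonis replicate 1, the shallowest library of all, the lowest counts were those of FARS2 (173) and AARS2 (201). The largest standard errors were those of AARS (0.223) and YARS (0.214).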
